A study of Mus musculus with 6 samples.

Results

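The genes described here encode the cytosolic ribosomal proteins of the mouse, the protein components of the small (Rps) and large (Rpl) ribosomal subunits. They were taken by symbol: Rps or Rpl followed by the protein number and at most 1 further letter and digit, together with Rpsa, Rplp0, Rplp1 and Rplp2, each flagged as coding by the authors. Pseudogene names, S6 kinase genes and paralogue names with an l and a digit after the protein number (Rpl22l1, Rpl7l1) were left out. This gave 77 of the 13405 listed genes, 31 of the small and 46 of the large subunit. Read to the letter, the exclusion of names that end in l and a digit would also drop Rpl3 to Rpl9, which are 7 ordinary ribosomal proteins, and leave 70. Rps27 and the tissue-limited copies Rpl3l, Rpl10l, Rpl39l and Rps4l were not analysed here.

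The study sequenced total RNA of 4T1, a breast tumour cell line derived from a Balb/c mouse, and compared 3 libraries with 3. One group carried a knockout of Atm (ATM KO), the gene of a kinase that signals DNA double-strand breaks, and the other carried a vector control. No label states how the knockout was made, which vector the controls carry, or whether libraries of a group are separate clones or cultures. A p-value therefore reflects only how these 6 libraries spread, and that spread may be technical.

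Ribosomal protein genes are transcribed at high and balanced rates, and their products are assembled with ribosomal RNA in the nucleolus. Their mRNAs begin with a C followed by a run of pyrimidines, the 5′ terminal oligopyrimidine (TOP) tract, through which mTORC1 and the RNA-binding protein LARP1 control their translation and stability. Unassembled Rpl5 and Rpl11, bound to 5S ribosomal RNA, inhibit Mdm2 and so stabilise p53. Mammalian genomes also hold many processed pseudogenes of these genes, which copy the mRNA and lack the introns.

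The values are normalized read counts, that is, reads per gene after division by a scaling factor for each library, and between 22494919 and 32341508 reads per library fell on listed genes. Atm itself stood at 1959, 2220 and 1591 in ATM KO 1 to 3, against 1978, 1613 and 1519 in vector control 1 to 3. These groups overlapped, and since a knockout need not lower the mRNA, Atm does not check the labels. The first principal component held 59.4% of the variance and placed ATM KO 2 at -41.5 and vector control 1 at -86.2, apart from the other 4 libraries (3.19 to 50.7). Vector control 2 and 3 were far more alike than any other pair, with a median chi-square per gene of 0.711, against 13.0 to 62.6 for the other pairs and the 0.455 that sampling noise alone would give. On the 71 ribosomal protein genes with at least 20 reads in this pair the median was 2.14, against 7.30 to 39.8 for the other pairs. These libraries differed beyond sampling noise and were kept as 2. That difference does not show whether they are separate cultures. Of 8 epithelial markers, 6 were listed, Krt8, Krt18, Krt14, Krt19, Epcam and Cdh1, and their summed level was 102256, 69340 and 113483 in ATM KO libraries, against 56929, 96871 and 95714 in vector control libraries. ATM KO 2 and vector control 1 were the lowest pair in that sum, and its part in the results was not tested. Of the leukocyte, fibroblast and endothelial lists, 1 of 6, 3 of 6 and 1 of 5 genes were listed, and the defining leukocyte gene Ptprc was not among them. The leukocyte gene Cd68 ran from 227 to 806 in ATM KO and from 301 to 1080 in vector control libraries, the summed fibroblast genes from 344 to 754 and from 146 to 547, and the endothelial gene Cdh5 from 0 to 6.84 and from 2.10 to 11.7.

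Many of these mRNAs share long stretches of identical sequence with other loci, which bears on what a read count for the gene can hold. Listed loci elsewhere in the genome copy long stretches of many of these genes, and 3 such pairs whose copies are well covered by reads are shown. The pairs give, for the 60 coding bases with the most differences, the parent first and its copy next, from the GENCODE M21 transcripts (GRCm38), read 5′ to 3′ with the differing bases in capitals.
Rps6: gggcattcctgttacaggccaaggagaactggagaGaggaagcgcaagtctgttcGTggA
Rps6-ps1: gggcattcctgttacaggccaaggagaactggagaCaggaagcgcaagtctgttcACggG
Rplp0: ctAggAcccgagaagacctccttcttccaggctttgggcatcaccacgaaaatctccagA
Gm8730: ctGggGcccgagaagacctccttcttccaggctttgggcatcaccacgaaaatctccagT
Rps18: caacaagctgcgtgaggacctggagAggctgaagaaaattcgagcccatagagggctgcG
Gm10260: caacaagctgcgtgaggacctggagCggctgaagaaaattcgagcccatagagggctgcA

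These stretches cover coding bases 238 to 297 of Rps6 (chromosome 4, its copy on chromosome 15), 388 to 447 of Rplp0 (chromosome 5, copy on 8) and 312 to 371 of Rps18 (chromosome 17, copy on 13). Even there, only 4, 3 and 2 of the 60 bases differed. Over all aligned bases the copies were identical to their parents at 98.1% of 747, 98.7% of 954 and 99.1% of 545 positions.

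Promoter sequence was at hand for 56 of the genes, in 67 start windows of 300 bases (RefSeq, GRCm38.p6, 250 bases before to 50 after the start). A C followed by at least 4 pyrimidines from the annotated start, the form of a TOP tract, was found in 12 of these windows, 17.9%, against 2.51% of all 32851 windows. The match had to begin at the annotated base itself, so a tract is missed where the annotated start is not the true one. The share is therefore not a count of the genes whose mRNA carries a TOP tract. Shown here are 4 starts of genes described below, from 10 bases before to 20 bases from the annotated start. Capitals mark the pyrimidines that run on from the annotated start, and in all 4 a pyrimidine also stands directly before it.
Rps6: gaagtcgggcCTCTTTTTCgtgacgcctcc
Rps18: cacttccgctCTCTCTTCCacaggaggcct
Rplp2: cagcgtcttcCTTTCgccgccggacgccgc
Rpl35a: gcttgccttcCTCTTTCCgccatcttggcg

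These lie at chr4:86857348-86857377 (minus strand), chr17:33955646-33955675 (minus), chr7:141447641-141447670 (plus) and chr16:33056472-33056501 (plus). Searched on both strands of the windows, CCGGAA, the core of an ETS site, was in 49.3% of the ribosomal protein windows and 14.9% of all. GGGCGG, a GC box, was in 62.7% and 35.7%, AAGATGG, part of the YY1 motif, in 14.9% and 6.34%, and TATAAA in 8.96% and 13.6%. None of these motifs contains another, and a match describes letters only.

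Levels per length spread widely, although a ribosome holds most of these proteins in a single copy each. Per kb of transcript, the mean over all 6 libraries ran from 10.1 normalized reads for Rps13 to 38033 for Rplp1. The highest were Rplp1 of the P stalk (38033 per kb), Rpl4 (35646 per kb), which reaches into the exit tunnel, Rpl8 (28792 per kb), which lies near the peptidyl transferase centre, and Rps15 of the small-subunit head (23760.0 per kb). The 10 genes with the highest means held 67.2% of the summed normalized reads of all members. At the other end, Rps13 had 7.70, 4.24 and 7.68 normalized reads in ATM KO libraries, against 5.84, 3.87 and 6.30 in vector control libraries. Rps29 had 7.70, 9.55 and 5.12 in ATM KO libraries, against 9.73, 3.87 and 4.203 in vector control libraries. Both fell under the filter of a mean of 10, which left 75 genes tested, 29 of the small and 46 of the large subunit.

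The level per length moved with how much of the transcript is found nowhere else. For each of the 76 genes whose identifier and symbol match in GENCODE M21, 50-base windows of 1 transcript were compared with the transcripts of all other genes. The share of windows with no exact match elsewhere ran from 4.91% for Rpl35 to 100%, with a median of 45.0%. The 31 genes with at least 50% unique windows had a median of 3364 normalized reads per kb, and the 45 genes below 50% had a median of 285. Across the 76 genes Spearman's rho was 0.56 (0.63 with windows of 100 bases), given as a description, since genes are not independent and share the same libraries. Of the 16 genes with a mean under 100 normalized reads, 14 had under 50% unique windows, against 12 of the 38 with a mean of at least 1000. The exceptions went both ways: Rplp1 was the highest per kb with 40.0% unique windows, while Rps16 and Rps29 stood at 12.2 and 17.2 per kb with 58.4% and 64.2%. Level per kb and unique share both depend on the 1 transcript taken. It was 5130 bases long for Rps15a and 3706 for Rps20, which gave 623 and 782 per kb with 93.9% and 92.4% unique windows. Other transcripts were not tried. The sources used here do not say how reads that match several loci were counted, and the part of that step in these levels was not tested. The row named Rpl24 carries an identifier that GENCODE M21 gives to Zbtb11, so it has no sequence values here. Its reads may not be those of a ribosomal protein gene, and it was kept among the members by its name.

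**Figure D1:**
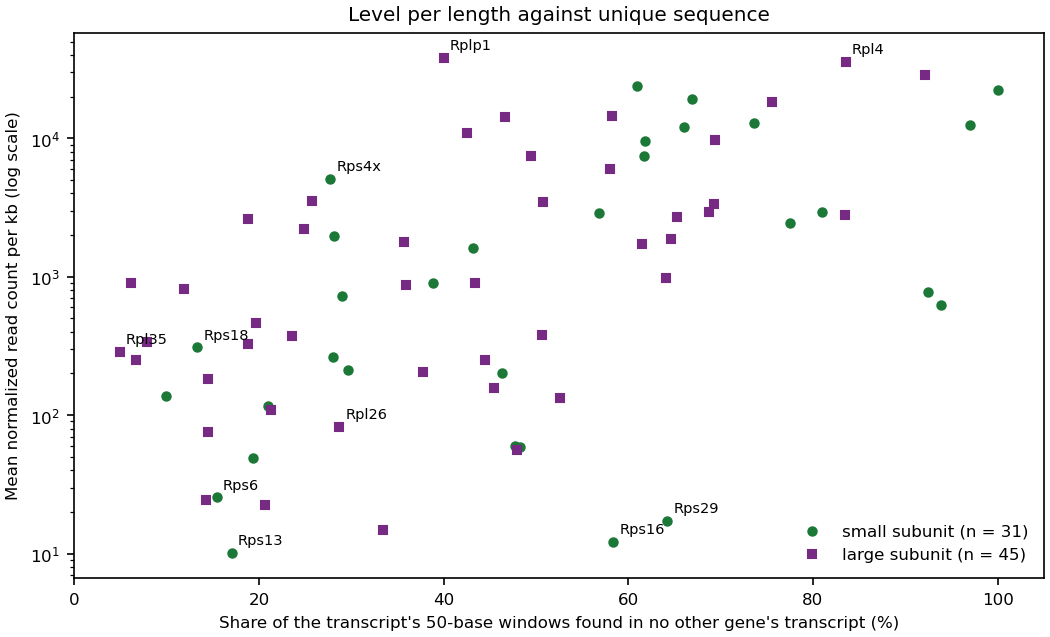
Each point is 1 of 76 ribosomal protein genes. The x axis gives the share of its 50-base transcript windows found in no other gene's transcript (%), the y axis its mean normalized read count per kb over 6 libraries (log scale), and colour and shape give the subunit. Low levels gather at the left, with Rps16 and Rps29 low despite more than 50% unique windows and Rplp1 high at 40.0%.

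Between ATM KO and vector control cells no ribosomal protein gene passed a test. Of the 75 genes tested, 0 were called by limma at an adjusted p of 0.05, 0 by edgeR and 0 by DESeq2, against 0%, 0% and 0.691% of all 12149 tested genes. The smallest adjusted p of a member was 0.999 by limma and 0.243 by DESeq2, the second of these for Rpl6. At an unadjusted p under 0.05 limma counted 2 members (Rpl6 and Rpl39) against 4.16% of all genes, edgeR 2 against 4.3%, and DESeq2 4 (these and Rps24 and Rps26) against 5.9%, so the members' shares lay below or near those of all genes. The median log2 fold change (ATM KO over vector control, from log2 of the value plus 1) was -0.14 over the members and -0.0090 over all tested genes. Of the members, 50 had a negative and 25 a positive value, where 51.4% of all tested genes were negative. Without the row named Rpl24, 49 of 74 tested members were negative, with a median of -0.15. In bulk RNA, a change in the mix of cells and a change in RNA per cell cannot be told apart. All 3 ATM KO libraries lay below all 3 vector control libraries for 13 members, and above them for 1, against 5.48% and 5.7% of all tested genes. The lower ones included Rpl4, Rpl6, Rpl7, Rpl8 and Rpl41 of the large and Rps3 and Rps26 of the small subunit, and the higher one was Rpl39. The median was -0.14 for the small and -0.15 for the large subunit.

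Split by level, the members gave different counts. Of the 39 members with a mean of at least 1000 normalized reads, 36 had a negative and 3 a positive log2 fold change, with a median of -0.23. The row named Rpl24, at -0.11, was among the negative ones. Of the 36 tested members below 1000, 14 were negative and 22 positive, with a median of 0.089. That majority turned with single libraries: 24 of 35 were negative without ATM KO 2 (median -0.092), 20 of 36 without vector control 2 (-0.048), 20 of 36 without vector control 3 (-0.035), and 22 of 36 with vector control 2 and 3 counted as 1 (-0.045). Of the abundant members, 34 to 36 were negative in these and the other fits over all 77 genes. Among all genes with a mean of at least 1000, 55% had a negative value and the median was -0.026. The groups did not overlap for 12 abundant members that were lower in ATM KO cells and 1 that was higher, against 6.66% and 4.73% of all genes at that level. The value of 1000 was chosen after the levels were seen, so these counts are a description with no test. Standard errors of the log2 fold change had a median of 0.16 among the abundant members and 0.39 among the others.

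**Figure D2:**
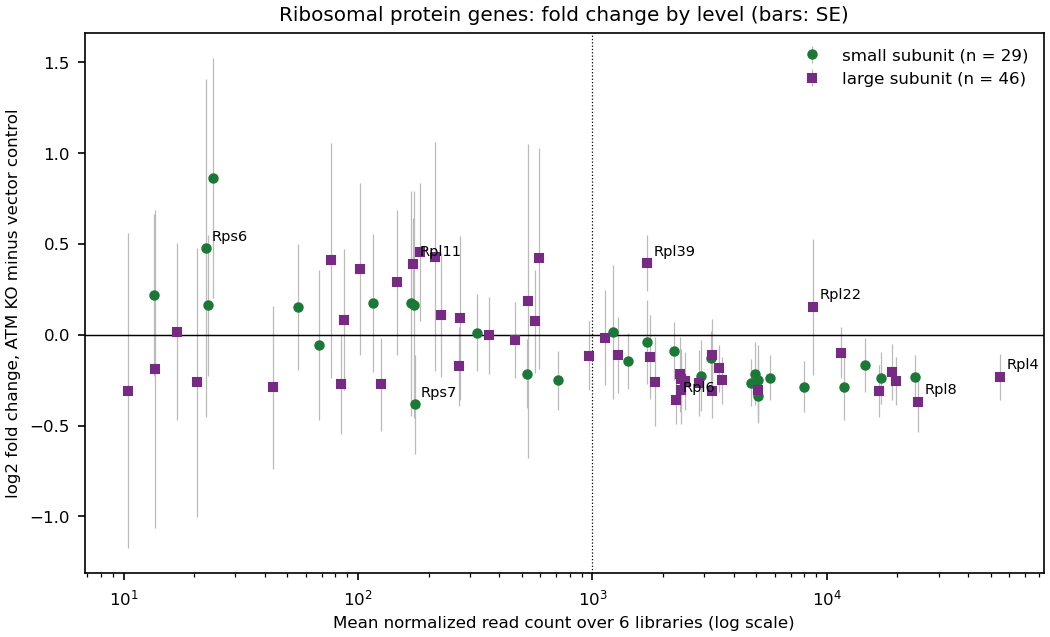
Each point is 1 of 75 tested ribosomal protein genes, with the mean normalized read count over 6 libraries on the x axis (log scale) and the log2 fold change, ATM KO minus vector control, on the y axis. Bars are 1 standard error from limma, and the dotted line marks a mean of 1000. To its right 36 of 39 genes lie below 0, and to its left the values scatter widely around 0.

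Among the abundant large-subunit genes, Rpl4 (chromosome 9, 64173375 to 64178666, plus strand, GRCm38) had 52986, 49991 and 48079 normalized reads in ATM KO libraries, against 53912, 62067 and 61911 in vector control libraries. Rpl8 had 21992, 25043 and 17489 in ATM KO libraries, against 28120.4, 27030.2 and 27338 in vector control libraries. In both genes every ATM KO library lay below every vector control library, narrowly so for Rpl4, where ATM KO 1 and vector control 1 were close. The log2 fold changes were -0.23 (SE 0.13) for Rpl4 and -0.37 (SE 0.16) for Rpl8.

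Rpl6, a large-subunit protein (chromosome 5, 121204481 to 121209241, plus strand), had 2039, 1968 and 1959 normalized reads in ATM KO libraries, against 2396, 2634 and 2628 in vector control libraries. It averaged 1989 ± 43.5 in ATM KO cells and 2552 ± 136 in vector control cells (SD, n = 3 each), with no overlap. Its log2 fold change of -0.36 (SE 0.13) had the smallest unadjusted limma p of any member, 0.0327, and an adjusted p of 0.999. Rpl7, whose protein binds ribosomal RNA in the large subunit, had 15224, 14368 and 14929.9 in ATM KO libraries, against 15719, 19986 and 19708 in vector control libraries. Rpl41, which encodes one of the smallest ribosomal proteins, had 2956, 3189.7 and 2556 in ATM KO libraries, against 3437, 3756 and 3573 in vector control libraries. Both had a log2 fold change of -0.31 and no overlap between groups.

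In the small subunit, Rps3, a protein of the mRNA entry site that is also described in DNA repair, had 21776, 23057 and 20941 normalized reads in ATM KO libraries, against 24214, 26602 and 26362 in vector control libraries. Rps26, which lies at the mRNA exit channel, had 4534, 4100.1 and 4886 in ATM KO libraries, against 5053, 5853 and 6196 in vector control libraries. The groups did not overlap in either gene, at log2 fold changes of -0.23 (SE 0.12) and -0.34 (SE 0.15). Rps15 had 10438, 10759.7 and 10641 in ATM KO libraries, against 10064, 14819 and 14557 in vector control libraries. Here vector control 1 lay below all 3 ATM KO libraries, while the other two controls lay well above them.

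Vector control 1 also stood below the other controls in the P stalk, the trimeric arm of Rplp0, Rplp1 and Rplp2 that recruits translation factors. Rplp0 had 17539, 17054 and 19133 normalized reads in ATM KO libraries, against 18990.2, 22767 and 22475 in vector control libraries. Rplp1 had 17529, 17694 and 17415 in ATM KO libraries, against 16695, 22576 and 21962 in vector control libraries. Rplp2 had 2958, 3188 and 3125 in ATM KO libraries, against 2555, 3654 and 3979.9 in vector control libraries. In all 3 genes vector control 1 lay within or below the range of the ATM KO libraries, so the groups overlapped. The log2 fold changes were -0.25 (SE 0.13), -0.21 (SE 0.16) and -0.11 (SE 0.20), and the last turned to 0.016 without vector control 3.

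Rpl39, a small protein of the exit tunnel (chromosome X, 37082520 to 37085402, minus strand), was the one member that was higher in every ATM KO library, and is named because of that. It had 1849.7, 1866 and 2114 normalized reads in ATM KO libraries, against 1323, 1531 and 1591 in vector control libraries. Its log2 fold change was 0.39 (SE 0.15), with an unadjusted limma p of 0.0414 and an adjusted p of 0.999. Rpl22, a large-subunit protein that mouse T cell development depends on, had 9036, 5797 and 12850.2 in ATM KO libraries, against 5171, 9473 and 10029.6 in vector control libraries. ATM KO 2 and vector control 1 were the lowest of all for Rpl22, and the log2 fold change of 0.15 (SE 0.37) became -0.15 without vector control 1 and -0.12 without ATM KO 3.

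The 6 largest positive values all belonged to genes with a mean under 1000. Rps6, the protein that S6 kinases phosphorylate, had 11.98, 34.0 and 17.9 in ATM KO libraries, against 57.4, 7.74 and 5.25 in vector control libraries. Its value of 0.48 (SE 0.93) was -0.14 by both edgeR and DESeq2 and without vector control 3. Vector control 1 and ATM KO 2 were the highest pair for Rps6.

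Rpl9 had 196, 271 and 163 normalized reads in ATM KO libraries, against 239, 117 and 119 in vector control libraries. Rpl30 had 192, 291 and 174 in ATM KO libraries, against 428, 94.8 and 96.7 in vector control libraries. Rpl10a, the protein of the L1 stalk, had 688, 958 and 321 in ATM KO libraries, against 992, 298 and 297 in vector control libraries. Again ATM KO 2 and vector control 1 were the highest pair, here for all 3 genes. Rpl35a, with the same highest pair, had 80.4, 144 and 38.4 in ATM KO libraries, against 113, 32.9 and 50.4 in vector control libraries. The log2 fold changes of these 4 genes lay between 0.41 and 0.45 with SEs of 0.38 to 0.65, and their size varied with single libraries. With 1 library left out at a time, Rpl30 ran from 0.066 (without vector control 2) to 1.15 (without vector control 1), and it was 0.083 by edgeR. Rpl10a ran from 0.080 (without ATM KO 2) to 1.00 (without vector control 1), Rpl9 from 0.26 to 0.79, and Rpl35a from -0.043 (without ATM KO 2) to 0.90. Rps7, a small-subunit protein, was the most negative of all members at -0.38 (SE 0.27), with 145, 195 and 119 in ATM KO libraries against 213, 179 and 196 in vector control libraries.

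This library pattern divided the members by level, and also by unique sequence. ATM KO 2 and vector control 1 were the highest pair for 24 of the 75 tested members, 32.0%, against 27.1% of all tested genes. They were so for 3 of 39 members with a mean of at least 1000, 10 of 22 between 100 and 1000 and 11 of 14 between 10 and 100, while the share was 31.0% among all genes with a mean of at least 1000 and 23.3% among those between 10 and 1000. By unique windows, they were so for 2 of 30 tested members with at least 50% and 21 of 44 below 50%. The median log2 fold changes of these groups were -0.23 and -0.046. Level and unique share go together, and their parts were not separated. For the abundant members, the median deviation from a gene's own mean on the log2 scale was -0.14, -0.099 and -0.082 in ATM KO 1 to 3, against -0.041, 0.18 and 0.21 in vector control 1 to 3. For the tested members below 1000 it was 0.039, 0.43 and -0.31 in ATM KO 1 to 3, against 0.45, -0.25 and -0.30 in vector control 1 to 3. Low members thus varied with the libraries that also stood apart over all genes, and the part of that difference in their fold changes was not tested. With ATM KO 2 and vector control 1 both left out, 35 of the 39 abundant members were negative with a median of -0.30, and the median of the others was 0.095. In that fit 26 members, 23 of them lower in ATM KO cells, had an unadjusted limma p under 0.05, against 17.7% of all genes, and the smallest adjusted p of a member was 0.147 (Rps15). Without vector control 1 alone these were 22 members, 18 of them lower, against 14.6% of all genes, with a smallest adjusted p of 0.223. Both fits take the control spread from vector control 2 and 3 alone, the pair far more alike than any other. Their unadjusted p-values may therefore be too small, for members and for all genes.

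**Figure D3:**
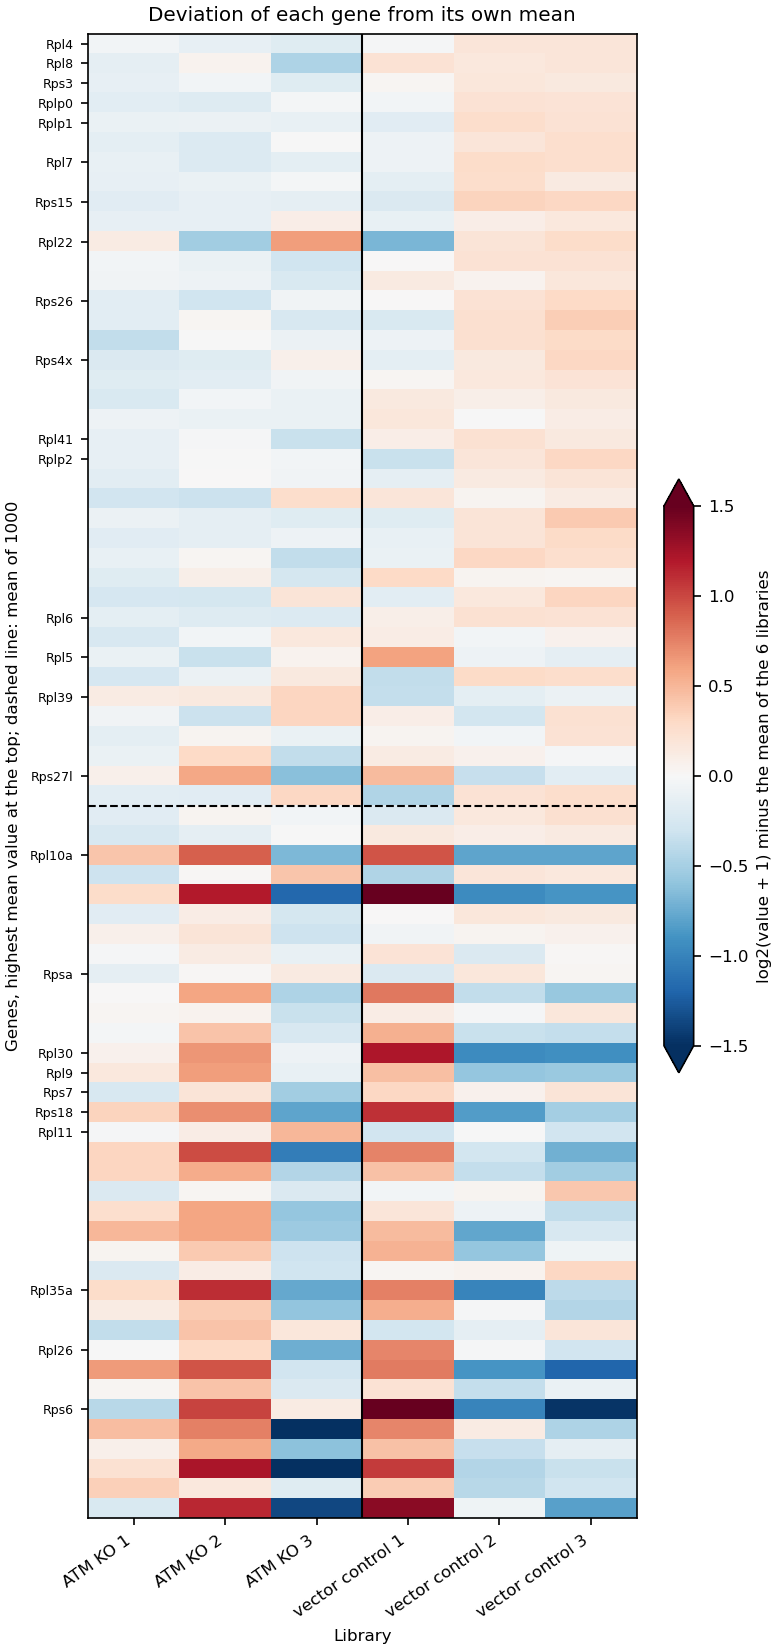
Rows are the 75 tested ribosomal protein genes from the highest mean (top) to the lowest, with genes described in the text labelled, and columns the 3 ATM KO and 3 vector control libraries. Colour is the deviation of log2(value + 1) from the gene's mean over 6 libraries, clipped at 1.5 either way, and the dashed line marks a mean of 1000. Above it ATM KO libraries are mostly pale blue and vector control 2 and 3 pale red, and below it ATM KO 2 and vector control 1 are red for most genes.

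Several members have duties outside the ribosome. Rpl5, of the 5S particle that binds Mdm2, had 1681, 1434 and 1868 normalized reads in ATM KO libraries, against 2741, 1710.3 and 1641 in vector control libraries. Rpl11, its partner, had 167, 181 and 238 in ATM KO libraries, against 138, 167 and 138 in vector control libraries. Both overlapped between groups (log2 -0.26, SE 0.24, and 0.39, SE 0.25), and Rpl5 turned to 0.081 without vector control 1 and ATM KO 2. Rps27l, a paralogue of Rps27 that p53 induces, had 1235, 1747 and 759 in ATM KO libraries, against 1636, 923 and 1049.6 in vector control libraries. Its log2 fold change of 0.016 (SE 0.37) turned negative without any 1 of ATM KO 1, ATM KO 2, vector control 2 and vector control 3. Of the 6 genes of the list for this axis (Rpl5, Rpl11, Mdm2, Trp53, Cdkn1a, Rps27l), 5 values were positive and the median was 0.045. Of them 0 passed a test, against 0.691% of all tested genes by DESeq2 and 0% by limma and edgeR. Mdm2 had 2179.9, 2279 and 3025 in ATM KO libraries, against 2546, 2435 and 2361 in vector control libraries.

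Rps4x, encoded on the X chromosome, had 4224, 4330.4 and 5181 normalized reads in ATM KO libraries, against 4447, 5457 and 6104 in vector control libraries. Rpsa, which is also known as the laminin receptor precursor, had 292, 325 and 351 in ATM KO libraries, against 275, 359.9 and 327 in vector control libraries. Both overlapped, with log2 fold changes of -0.21 (SE 0.17) and 0.012 (SE 0.21), and Rpsa turned negative without vector control 1 or without ATM KO 3.

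The files list 41 loci outside the members that share at least 20% of their 50-base windows with 1 of 30 members and lie elsewhere in the genome. Most are annotated as processed pseudogenes, Gm10260 is annotated as coding and overlaps a listed noncoding gene, and 11 carry the authors' coding flag. For 10 of the 30 members, the copies together stood above the gene itself per kb, and for 8 they did so in normalized reads. Some of the 10 had few reads in gene and copy alike. Rps13 averaged 5.94 normalized reads and its copy 12.6, and Rps29 averaged 6.70 and its copy 6.28. Rps6 averaged 25.5 normalized reads per kb over all libraries and Rps6-ps1 1187. Rps18 averaged 309 per kb and Gm10260 9791, and Rpl26 averaged 82.3 and Gm15772 3863. Rps7 averaged 213 per kb and Gm6472 2558. With such pairs, the reads of the gene and of the copy are uncertain as measures of either locus.

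By library, Rps6-ps1 had 846, 795 and 735 normalized reads in ATM KO libraries, against 949, 999 and 997 in vector control libraries. Gm10260 had 5177, 4842 and 4592 in ATM KO libraries, against 5091, 6763 and 6493 in vector control libraries. Its parent Rps18 had 191, 246 and 87.0 in ATM KO libraries, against 323, 84.2 and 106.1 in vector control libraries. The libraries ranked differently in gene and copy: for Rps6 and Rps18, ATM KO 2 and vector control 1 were the highest pair, and for their copies they were not.

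Gm15772 had 1644, 1622 and 1252 normalized reads in ATM KO libraries, against 1549, 2078 and 2007 in vector control libraries, where Rpl26 itself had 41.1, 50.9 and 24.3 against 69.1, 40.6 and 33.6. Gm8730, the copy of Rplp0, had 8686, 7768 and 9676 in ATM KO libraries, against 9978, 11148 and 11246 in vector control libraries, with no overlap and a log2 fold change of -0.31 (SE 0.14). The value of Rplp0 itself was -0.25. Of the 29 copies tested, 26 were negative and 3 positive with a median log2 fold change of -0.31. Groups did not overlap for 7 copies lower and 0 higher in ATM KO cells, against 5.48% and 5.7% of all tested genes. By limma and DESeq2 0 copies were called, against 0% and 0.691% of all tested genes.

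**Figure D4:**
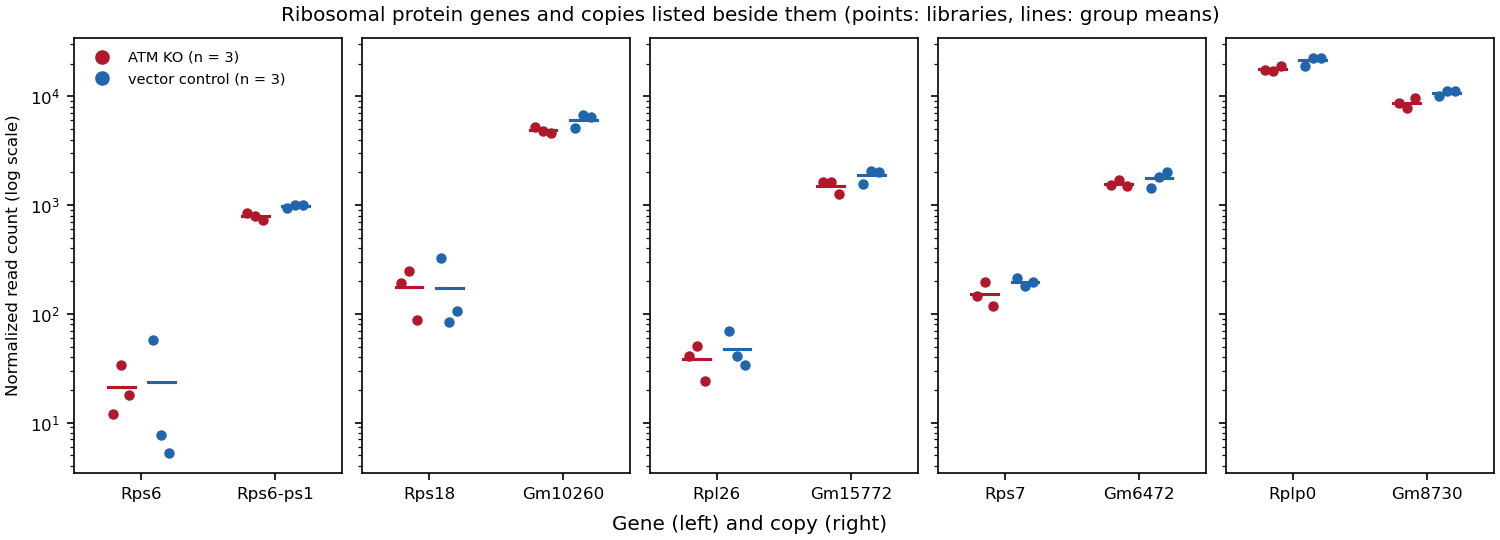
Each panel shows a ribosomal protein gene (left) and a listed copy of it (right), with normalized read counts on a log axis. Points are libraries, red for ATM KO and blue for vector control, and lines are group means of 3 libraries. For Rps6, Rps18, Rpl26 and Rps7 the copy lies far above the gene. The copy scatters less on this axis for Rps6, Rps18 and Rpl26. For Rps7 it scatters less in ATM KO and more in vector control libraries. For Rplp0 the gene lies above its copy.

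The members together took 1.05%, 1.06% and 1.02% of the reads of ATM KO libraries, against 1.08%, 1.22% and 1.26% of those of vector control libraries. The means were 1.04% ± 0.021 in ATM KO cells and 1.19% ± 0.096 in vector control cells (SD, n = 3 each). The groups did not overlap, although vector control 1 lay close to the ATM KO libraries. Without Rpl4, the largest contributor, the shares were 0.861%, 0.877% and 0.851% in ATM KO libraries, against 0.889%, 1.01% and 1.04% in vector control libraries. Members with a mean under 1000 took 0.0274%, 0.0350% and 0.0228% in ATM KO libraries, against 0.0343%, 0.0238% and 0.0247% in vector control libraries, with ATM KO 2 and vector control 1 the highest. A share of reads sets the members against all other RNA, and with 3 libraries a group an exact permutation test cannot give a two-sided p below 0.10.

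**Figure D5:**
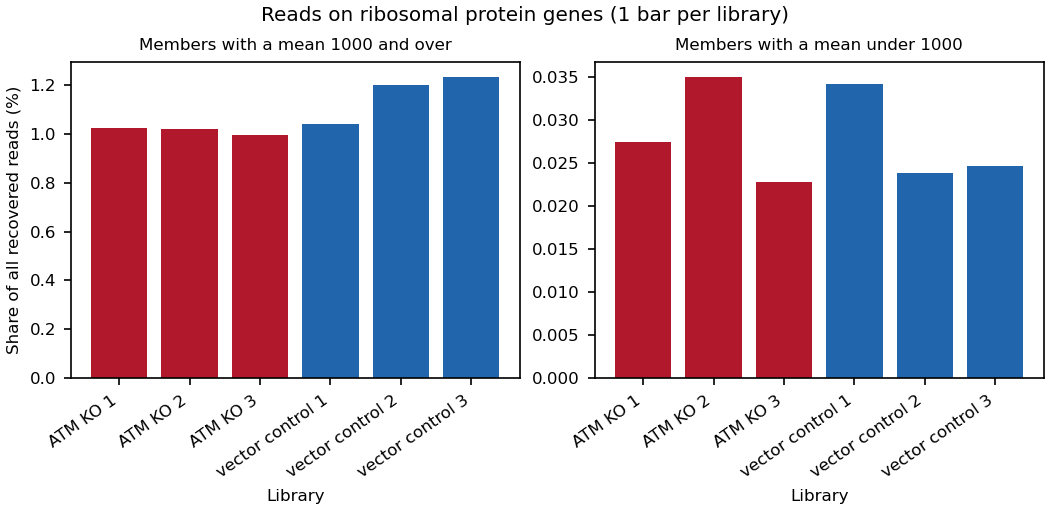
Bars give the share of each library's recovered reads (%) on ribosomal protein genes with a mean of at least 1000 normalized reads (left) and under 1000 (right), with ATM KO in red and vector control in blue. On the left the ATM KO bars lie within 0.995% to 1.03%, with vector control 1 close above them at 1.04%. Those of vector control 2 and 3 lie at 1.20% and 1.23%. On the right ATM KO 2 and vector control 1 are the tallest.

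Among other genes whose transcripts carry a TOP tract, the translation factors were mostly negative. Of 8 hosts of small nucleolar RNAs, 4 were listed and 3 of these were positive, with a median of 0.070. Each of their values was smaller in size than its SE (median SE 0.26). ATM KO 2 and vector control 1 were the highest pair for 3 of the 4. Of 21 translation factors and related genes, listed apart from the hosts, 20 had a negative log2 fold change and 1 (Vim) a positive one. Their median was -0.17 and 0 were called, against 0.691% of all tested genes by DESeq2. Of all tested genes 51.4% were negative, and 55% of those with a mean of at least 1000. Groups did not overlap for 4, all lower in ATM KO cells: Eef1b2, Eef1g, Npm1 and Naca. That compares with 5.48% of all tested genes, and 6.66% of those with a mean of at least 1000. Eef2, the translocation factor, had 138686, 114904 and 149390.0 normalized reads in ATM KO libraries, against 132690.0, 184913 and 182284 in vector control libraries. Pabpc1, the poly(A)-binding protein, had 68925, 57785 and 81464 in ATM KO libraries, against 62793, 81379 and 79848 in vector control libraries. Both overlapped.

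Of the 6 listed ribosomal genes that the name rule does not take, 4 were negative and 2 positive, with 0 called. For this list and those below, the share called among all tested genes was 0% by limma and edgeR and 0.691% by DESeq2. In every ATM KO library 1 gene was lower and 1 higher, against 5.48% and 5.7% of all tested genes. The lower one was Gnb2l1, the small-subunit scaffold RACK1, which had 34802, 35405 and 24774 normalized reads in ATM KO libraries, against 39218, 42065 and 41822 in vector control libraries. Its log2 fold change was -0.39 (SE 0.17). The higher one was Fau, which encodes Rps30 fused to a ubiquitin-like protein, with 253, 226 and 273 in ATM KO libraries, against 172, 206 and 224 in vector control libraries (log2 0.32, SE 0.22). Rpl7l1, a paralogue of Rpl7, had 4343, 7968 and 3234 in ATM KO libraries, against 8161, 3655 and 3720.4 in vector control libraries. Rpl22l1, the paralogue of Rpl22 that Rpl22 represses in mice, is named for its partner, and had 234, 452 and 314 in ATM KO libraries, against 375, 868 and 917 in vector control libraries (log2 -1.05, SE 0.43). None of these genes passed a test. Of 14 regulators of TOP mRNAs and ribosomal protein genes, 8 were positive and 6 negative with a median of 0.0060 and 0 called. Larp1, which binds the TOP tract, had 10138, 15086 and 6398 in ATM KO libraries, against 17510.1, 9503 and 9398 in vector control libraries. Of the 4 listed hosts of small nucleolar RNAs, whose transcripts also carry a TOP tract, 3 were positive with a median of 0.070 and a median SE of 0.26. Gas5 had 3362, 3381 and 3043 in ATM KO libraries, against 3965, 2628 and 2627 in vector control libraries, and Snhg5 had 1110.5, 1274 and 805 against 2203, 619 and 665. Of 10 chaperones and importers of ribosomal proteins, 4 were positive and 6 negative with a median of -0.019. Kpnb1 had 26265, 31358 and 14545 in ATM KO libraries, against 40739, 26646 and 26787 in vector control libraries, and Ipo5 had 17545, 19906 and 12509 against 25713, 18348 and 18389.7. In these 2 lists 0 genes were called.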

How the data were processed

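Total RNA of 3 ATM KO and 3 vector control libraries was sequenced, and samples were grouped by their titles. The builds GRCm38 and mm9 are named in the submitters' processing notes, as are HTSeq, DESeq2, STAR, SAMtools, Trim Galore and cutadapt, with no role or version. The deposited unit is a signal per gene: whole reads divided by a scaling factor that differs between libraries, as the deposited values themselves show. In each library 100% of the values were whole multiples of 1 step within 0.01 reads, which gave back the whole reads. Handling of reads with several matches, strand and the gene filter are not given in the sources used here.

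Genes with a mean of at least 10 over the 6 libraries (12149) were fitted with limma 3.58.1 (R 4.3.3, trend) on log2(value + 1), a scale that understates the change of low genes, with Benjamini-Hochberg adjustment over all of them and a threshold of 0.05. The whole reads were also tested with DESeq2 1.42.0 and with the quasi-likelihood test of edgeR 4.0.16. On simulated reads with the spread of these libraries, limma found 3 of 100 genes changed 2-fold and 50 of 100 changed 4-fold, and DESeq2 21 and 82 with 50 unchanged genes called.

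Transcripts and coordinates come from GENCODE M21 (GRCm38), with 1 transcript per gene, and start windows from RefSeq (GRCm38.p6). Members and gene lists were chosen with earlier results of these data known. Genes named with a value in every library were the 4 highest in mean and in mean per kb, the 6 most positive and 6 most negative, any called, members with roles outside the ribosome, and of each other list those called or else the 2 highest. Rpl39, Rpl22l1, the non-overlapping genes of the TOP list and the copies shown were picked with their values in view, as were the copy threshold of 20% and the level of 1000. Some genes that this rule takes are not reported here.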

Additional observations from a re-analysis of the deposited data

How the results depend on the processing

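The count of called members was 0 under every alternative run with limma (pseudocounts of 0.5 and 5, no filter, TMM scaling, equal totals, each library left out in turn), with edgeR and with DESeq2. The members' median log2 fold change of -0.14 ranged from -0.22 to -0.11 over these and over 3 alternatives chosen after the data were seen: the literal reading of the name rule (-0.13), vector control 2 and 3 counted as 1 (-0.14), and vector control 1 and ATM KO 2 left out (-0.22). Of the 39 abundant members, 34 to 36 were negative in each of these fits except the literal reading, which holds fewer genes and was not split by level. The median of the less abundant members, 0.089, was -0.048 without vector control 2, -0.035 without vector control 3, -0.092 without ATM KO 2 and -0.045 with vector control 2 and 3 counted as 1, and 0.31 without vector control 1 or ATM KO 3. The same replicate numbers did not pair the libraries (correlations of deviations of -0.021, -0.58 and 0.53), and a replicate block gave 0 calls and a median of -0.14.

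With 1 library left out at a time, Rpl22 ran from -0.15 (without vector control 1) to 0.45, with -0.12 without ATM KO 3, Rpl35a from -0.043 (without ATM KO 2) to 0.90, and Rplp2 from -0.30 to 0.016 (without vector control 3). Rps27l ran from -0.27 (without ATM KO 2) to 0.33, Rps6 from -0.14 (without vector control 3) to 1.47, and Rpsa from -0.093 (without vector control 1) to 0.099. Without vector control 1 and ATM KO 2, Rpl5 was 0.081, Rps27l -0.024 and Rpsa -0.10. With vector control 2 and 3 counted as 1, Rps27l was -0.11 and Rps6 -0.031, and Rps6 was -0.14 by edgeR and by DESeq2. The other 366 values of named members under an alternative kept their direction. The cause of these turns was not tested.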
